A study of Mus musculus with 14 samples.

Results

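Ogdh knockdown was compared at day 4 with control cells that had not switched on their hairpin. The comparison used 6 of the 14 RNA-seq libraries of the series, taken by their titles: 4 libraries with a hairpin against Ogdh, induced and sorted, and 2 with the control hairpin, uninduced and sorted. All came from KL974, a single mouse line labelled as acute myeloid leukemia (AML), and each library shared mutant Trp53 (R172H) and hairpins that target Nf1 and Mll3 (Kmt2c). The cells grew with the mouse cytokines IL3, IL6 and SCF and held a lentivirus in which doxycycline switches on a short hairpin RNA (shRNA) together with blue fluorescent protein (BFP).

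The case groups were shOgdh346 and shOgdh2081, sorted as BFP positive after 4 days of doxycycline, with 2 libraries each. The main control was the hairpin shRen713, sorted as BFP negative after the same 4 days of doxycycline, with 2 libraries. The arms therefore differed by the Ogdh hairpin, by hairpin expression as such and by the sort gate, and these cannot be told apart within the 6 libraries. The induced control (shRen713, BFP positive, day 4, 2 libraries) differs from the knockdown by the hairpin carried and served to ask which changes hold with either control. The labels do not say whether replicates were separate cultures, and the p-values measure spread among these libraries, part of which may be technical.

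Ogdh encodes the E1 enzyme that acts on 2-oxoglutarate (alpha-ketoglutarate) in the dehydrogenase complex that makes succinyl-CoA in the tricarboxylic acid (TCA) cycle. Its substrate is also a cofactor of dioxygenases that demethylate histones and DNA and that hydroxylate hypoxia-inducible factor, and its product is a precursor of heme. Blood progenitors use these routes in growth and in erythroid and myeloid differentiation.

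Library totals were 3663014 and 10271698 counts for uninduced control replicates 1 and 2, 5680900 and 1159021 for shOgdh346, and 913482 and 4627632 for shOgdh2081. A count of 0 allows up to 3 counts, or 0.291 to 3.29 in CPM (counts scaled to equal library size) across the 6 libraries, and this limit covers counting error only. On the first principal component of the 8 day 4 libraries (38.8% of the variance), the controls lay between -18.5 and -12.5, the deeper Ogdh libraries at 5.94 and 7.06 and the shallow ones at 20.1 and 31.7. The shallow Ogdh libraries are numbered 10 and 15 in the labels and the deeper ones 25 and 30. Of 14 myeloid progenitor and AML markers, 10 had at most 3 counts in each of the 6 libraries, among them Mpo, Elane, Cebpa, Itgam and Csf3r. Kit lay at 496 to 555 CPM and Myb at 658 to 891 CPM, while Ptprc (CD45) was at 9.49 to 15.4 CPM and Spi1 at 0.813 to 2.19 CPM. The defining myeloid markers were thus at or near 0 in cells labelled as AML. In bulk RNA, fewer cells of a type and less RNA per cell cannot be told apart.

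The targeted gene was low in all 4 case libraries. Ogdh (ENSMUSG00000020456, GRCm38 chromosome 11, 6291633 to 6356642, plus strand) was at 60.8 and 60.8 CPM with shOgdh346, 51.5 and 52.3 CPM with shOgdh2081, and 240 and 230 CPM in the uninduced control. Case and control libraries did not overlap. The log2 fold change was -2.06 ± 0.08 (standard error, SE; adjusted p = 1.45e-30, edgeR), with -1.95 for shOgdh346 and -2.17 for shOgdh2081. In the induced control Ogdh was at 247 and 267 CPM, and the log2 fold change against it was -2.19 ± 0.09.

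A gene was called at an adjusted p under 0.05 in edgeR's quasi-likelihood test, with Benjamini-Hochberg adjustment over 10791 tested genes. Against the uninduced control, 1135 genes were higher (10.5% of those tested) and 1108 lower (10.3%) with Ogdh knockdown, and 104 and 27 of these changed more than 2-fold. With shOgdh346 alone 722 were higher (6.69%) and 681 lower (6.31%), and with shOgdh2081 alone 861 (7.98%) and 723 (6.7%). For the mean and for each hairpin in the same direction, 435 genes were called higher (4.03%) and 395 lower (3.66%). All 4 Ogdh libraries lay above both uninduced libraries for 1792 genes (16.6%) and below both for 2036 genes (18.9%).

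Against the induced control, 833 genes were higher (7.72%) and 902 lower (8.36%). The comparisons share the 4 Ogdh libraries. Called against both controls in the same direction were 1284 genes, 626 higher (5.8%) and 658 lower (6.1%), which is 57.2% of the calls against the uninduced and 74% of those against the induced control. The number called in opposite directions was 0. Against the uninduced control alone 959 genes were called, and against the induced control alone 451. Between the controls themselves, edgeR called 4 genes higher (0.0371%) and 4 lower (0.0371%) in induced cells, with 498 genes at an unadjusted p under 0.05 and 3 calls by DESeq2. Of the 1410 genes called against 1 control alone, 7 were among these 8. For the remainder the difference between the controls did not pass the test, so a missing call against 1 control does not show that the change depends on it.

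The number of calls against the uninduced control moved little when the induced control libraries were left out and more with depth and tool. Fitted without the 4 induced control libraries of days 2 and 4, the model called 2142 genes, of which 2138 were among the 2243. Those libraries enter this comparison only through the shared estimate of spread, the scaling and the gene filter, and the filter was kept. A small shift was therefore built in, and it says little on whether the knockdown changes hold. DESeq2 called 721, all among the 2243, and thinning each library to 913482 counts gave 703 calls. Leaving out uninduced replicate 1 or 2, shOgdh346 replicate 1 or shOgdh2081 replicate 2 gave 1403, 1463, 1350 and 1360 calls. The 1284 genes called against both controls became 465 with DESeq2, 362 after thinning, 413 without induced control replicate 1 and 759 without its replicate 2. The 1735 calls against the induced control became 469 and 912 without its replicates 1 and 2. The calls for shOgdh346 were 355 and 832 without its replicates 1 and 2, and those for shOgdh2081 were 912 and 555 without its own and 945 without uninduced replicate 1.

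**Figure D1:**
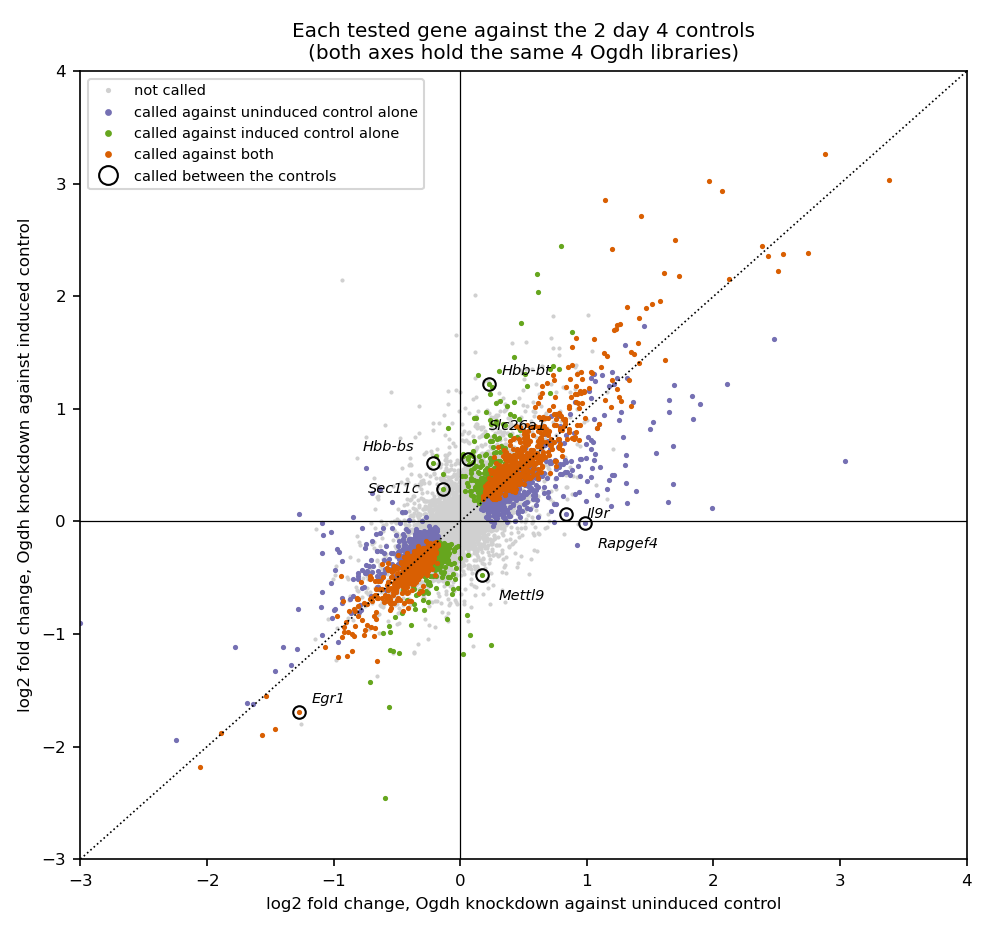
Each point is 1 of the 10791 tested genes, with its log2 fold change of Ogdh knockdown against uninduced control (x axis) and against induced control (y axis), coloured by the comparison in which it was called, with the 8 genes called between the controls circled and 1 gene outside the range. Both axes use the same 4 Ogdh libraries, which places points near the dotted line of equality, and Rapgef4 (0.99 on x, -0.01 on y) and Hbb-bt (0.23 on x, 1.23 on y) lie away from it.

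Rapgef4 and Il9r were higher in knockdown than in uninduced cells and lay in or near the range of the Ogdh libraries in the induced control. Rapgef4, an exchange factor for Rap GTPases that cyclic AMP activates, was at 67.1, 52.2, 63.6 and 66.1 CPM in the Ogdh libraries and 29.8 and 33.8 CPM in the uninduced control. In the induced control it was at 63.6 and 66.7 CPM, inside the range of the Ogdh libraries. The rise against the uninduced control was 0.99 ± 0.10 (log2, adjusted p = 4.91e-11, edgeR), that of the induced over the uninduced control was 1.00 ± 0.12 (adjusted p = 2.57e-07), and the difference from the induced control was -0.01 ± 0.11 (adjusted p = 0.963). Il9r, the interleukin 9 receptor, was at 62.5 to 70.4 CPM in the Ogdh libraries, 38.8 and 36.7 CPM in the uninduced and 59.8 and 69.0 CPM in the induced control. Its log2 fold changes were 0.84 ± 0.10 and 0.07 ± 0.11 against these controls. Rapgef4os3 (chromosome 2, 72244965 to 72248975, minus strand) lies within Rapgef4 (71981240 to 72257474, plus strand) and rose by 1.84 ± 0.30 against the uninduced control. The sources used here do not give the strand setting of the counting, so reads of this pair cannot be told apart.

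The beta globin genes went the other way. Hbb-bt was at 38.3, 38.5, 30.7 and 34.5 CPM in the Ogdh libraries, 32.5 and 29.8 CPM in the uninduced control and 15.7 and 14.9 CPM in the induced control. It rose by 1.23 ± 0.17 against the induced control (adjusted p = 1.2e-07, edgeR), while against the uninduced control the difference was 0.23 ± 0.12 (adjusted p = 0.172). Hbb-bs was at 125.8 and 128.4 CPM with shOgdh346, 83.3 and 94.6 CPM with shOgdh2081, 131 and 121 CPM in the uninduced and 76.4 and 73.7 CPM in the induced control. Its sign turned with the control, from -0.21 ± 0.08 (adjusted p = 0.0627) to 0.52 ± 0.10 (adjusted p = 0.000206). Both globin genes were lower in the induced than in the uninduced control (adjusted p = 0.000717 for Hbb-bt and 1.77e-05 for Hbb-bs). Hba-a1, an alpha globin gene, rose by 0.49 ± 0.09 against the induced control, with 0.13 ± 0.08 against the uninduced one (adjusted p = 0.235). Near-identical globin copies share reads, so their single values are uncertain.

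The other genes called between the controls were Egr1, described with the falls, and Mettl9, Sec11c and Slc26a1. Mettl9, a methyltransferase, was at 60.5 and 48.0 CPM in the induced control, 29.6 and 38.2 CPM in the uninduced control and 32.9 to 43.3 CPM in the Ogdh libraries. Sec11c, a signal peptidase subunit, and Slc26a1, an anion exchanger, were lower in the induced control by -0.42 and -0.50. All 3 were called against the induced control alone, and their changes against the uninduced control were 0.17, -0.14 and 0.06.

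Within the naming limits given in processing, the largest changes called against 1 control alone belonged to genes of low level. Against the uninduced control alone these were Pik3ip1 (1.90), Rapgef4os3, Cpa3 (1.83), Cuedc1 (1.55) and Mn1 (1.52) among the higher genes. The lower ones were Lancl3 (-1.10), Jag1 (-1.10), Lacc1 (-1.09), Fzd6 (-1.09) and Zcchc2 (-1.08), the last with 0 counts in the shallowest library. Each of these 10 lost its call under thinning, DESeq2 or both. Leaving out shOgdh346 replicate 1 ended the calls of Pik3ip1 (adjusted p = 0.063, edgeR), Mn1 (0.13), Jag1 (0.074), Lacc1 (0.14) and Fzd6 (0.099). Leaving out uninduced replicate 2 ended those of Lancl3 (0.31), Fzd6 (0.31) and Mn1 (0.099), uninduced replicate 1 that of Mn1 (0.053), and shOgdh2081 replicate 2 those of Jag1 (0.073), Lacc1 (0.059) and Fzd6 (0.09). Called against the induced control alone were Hist1h2ac (2.20), Ccdc17 (1.46), Ypel2 (1.38), Nhsl2 (1.35) and Rilpl1 (1.33), and in the other direction Lef1 (-1.17), Tdrkh (-1.15), Arhgdig (-1.14), Ehd3 (-1.10) and Nfib (-1.0). None of these 20 genes was called between the controls.

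Among genes called for each hairpin and against both controls and within the naming limits, the largest fitted rise was that of Bcl6. Bcl6, a transcriptional repressor, was at 2.45, 2.57, 6.58 and 4.08 CPM in the Ogdh libraries. The uninduced control held 1 and 3 Bcl6 counts and the Ogdh libraries 42 in all, a ratio of 11.8 with a 95% counting interval of 4.28 to 45.3. Vit (vitrin, a matrix protein) was at 20.3, 18.8, 12.1 and 16.5 CPM against 3.25 and 3.01 CPM, a log2 fold change of 2.51 ± 0.23 (adjusted p = 2.35e-13, edgeR). For Bcl6 and Vit every Ogdh library was above every day 4 control library, induced ones included, which their choice as largest rises favours. The 2.57 CPM of Bcl6 in the shallow shOgdh346 library are 3 counts. Its group mean reached 5 CPM only with shOgdh2081 (5.33 CPM).

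The other large rises were Hmox1, described with the iron genes, and Ehf (2.38), Col20a1 (2.12), Tnxb (2.07), Xkr9 (1.57), Hist1h4h (1.51), Hdac9 (1.46), Hspa1b (1.41) and Unc13c (1.40). Ehf is an ETS transcription factor, Hdac9 a histone deacetylase and Hspa1b an inducible heat shock protein. Hspa1b and Hist1h4h have near-identical copies and Tnxb overlaps a neighbouring gene, so their counts are uncertain. Thinning ended the calls of Bcl6, Ehf, Col20a1, Xkr9 and Hist1h4h, and DESeq2 those of Col20a1 and Hdac9. Leaving out shOgdh2081 replicate 2 ended that of Col20a1 (adjusted p = 0.067, edgeR).

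Among the falls after Ogdh, Egr1 (an immediate early transcription factor) was at 74.1, 53.9, 58.1 and 54.5 CPM against 165 and 138 CPM in the uninduced control. Its log2 fold change was -1.27 ± 0.09 (adjusted p = 4.35e-18, edgeR). The induced control was higher still, at 188 and 213 CPM, and gave -1.69 ± 0.10. The controls themselves differed by 0.42 ± 0.09 for Egr1 (adjusted p = 0.0432), so the fall held with both and its size depended on the control. Anxa6 (annexin A6) was at 25.2 to 29.1 CPM in the Ogdh libraries, 53.4 and 47.9 CPM in the uninduced control and 37.0 and 35.4 CPM in the induced control. Its changes were -0.94 ± 0.11 and -0.48 ± 0.14, and the difference between the controls was not called (-0.46 ± 0.13, adjusted p = 0.334).

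Gata2, a transcription factor of stem, progenitor and mast cells, was at 78.3, 75.3, 80.0 and 83.5 CPM against 154.5 and 152 CPM. It changed by -0.94 ± 0.08 (adjusted p = 1.75e-14, edgeR), and by -1.03 ± 0.09 against the induced control. Perp, a p53 target of cell adhesion and apoptosis, was at 26.0 and 27.4 CPM with shOgdh346, 45.0 and 37.3 CPM with shOgdh2081 and 57.5 and 62.9 CPM in the control. The other falls were Sox17 (-1.53), Cerk (-0.97), Zic2 (-0.92), Pcsk6 (-0.90), Emilin2 (-0.88), Reep2 (-0.88) and Pim1 (-0.86), a kinase gene induced by cytokines. Thinning ended the calls of Sox17, Cerk, Zic2, Pcsk6 and Reep2, and DESeq2 those of Cerk, Zic2 and Reep2. Without shOgdh2081 replicate 2 the calls of Cerk (adjusted p = 0.065, edgeR) and Reep2 (0.18) ended, and without shOgdh346 replicate 1 that of Zic2 (0.079).

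**Figure D2:**
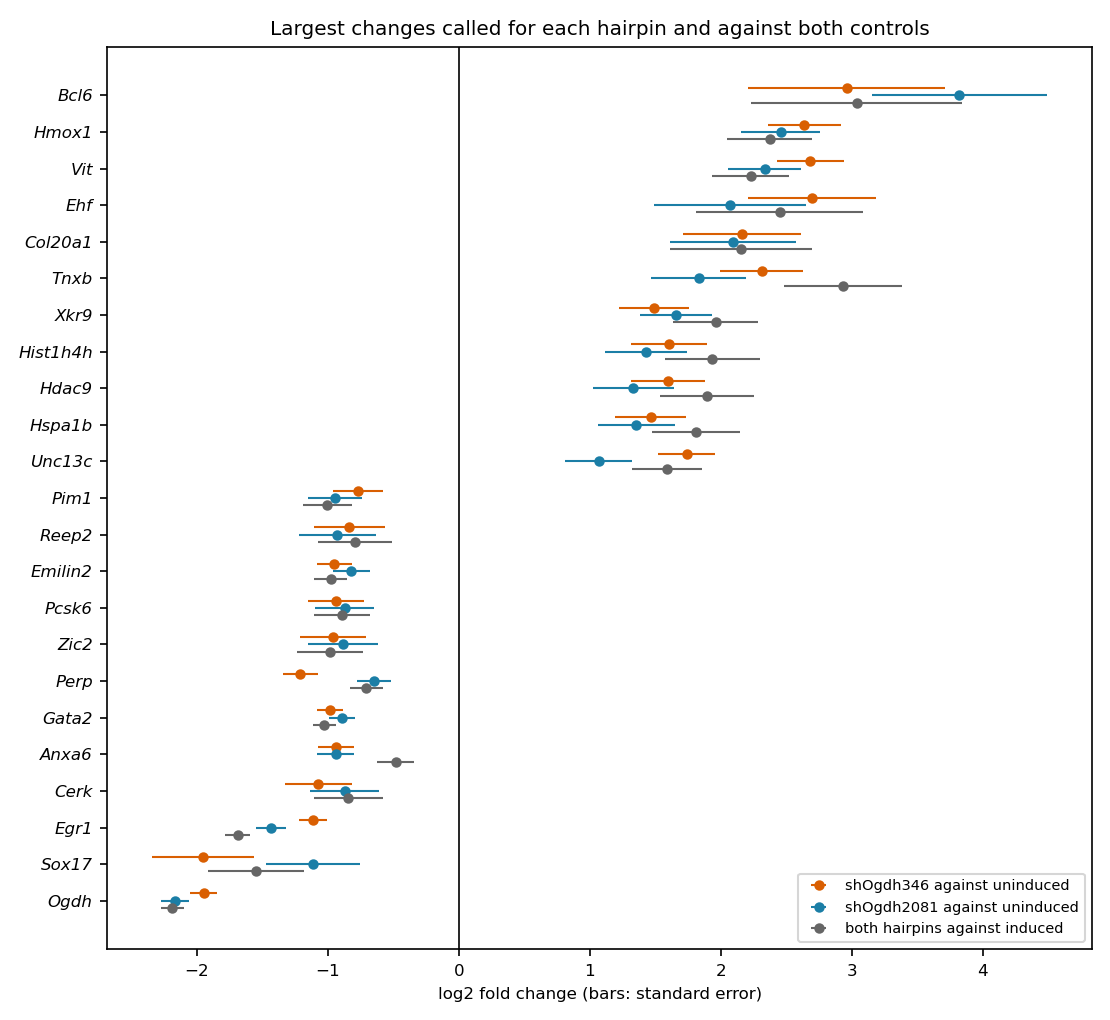
Points are log2 fold changes with standard errors for 23 of 24 genes called for each hairpin and against both controls. The 24 changed most within the naming limits. Values are given for shOgdh346 and for shOgdh2081 against the uninduced control and for both hairpins against the induced control. The values of a gene share their sign, which the choice of genes fixes, and those of Anxa6 (-0.94 and -0.48) and Egr1 (-1.27 and -1.69) differ by control.

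Genes of the oxidative stress response that NRF2 (Nfe2l2) drives were called higher more often than genes at large. Of 24 tested, 10 were higher and 2 lower, beside 10.5% and 10.3% of all genes. Against both controls 7 and 1 were called, beside 5.8% and 6.1% of all genes. Hmox1, heme oxygenase (ENSMUSG00000005413, chromosome 8, 75093621 to 75100589, plus strand), was at 16.4, 12.8, 9.87 and 14.8 CPM in the Ogdh libraries, 2.17 and 2.62 CPM in the uninduced and 1.88 and 4.20 CPM in the induced control. Every Ogdh library was above every control library. Hmox1 rose by 2.55 ± 0.25 (adjusted p = 2.58e-12, edgeR) and by 2.37 ± 0.33 against the induced control. Nqo1, a quinone reductase (ENSMUSG00000003849, chromosome 8, 107388225 to 107403206, minus strand), was at 233, 223, 191 and 218 CPM against 140 and 145 CPM. It rose by 0.62 ± 0.08 (adjusted p = 7.43e-09) and by 0.71 ± 0.09 against the induced control.

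The glutathione synthesis gene Gclc was at 248 to 256 CPM against 181 and 174 CPM (0.52 ± 0.07), and the autophagy receptor gene Sqstm1 at 270 to 293 CPM against 205 and 200 CPM (0.49 ± 0.07). Tkt and Txn1, of the pentose phosphate and thioredoxin pathways, were the lower members at -0.21 and -0.21. Both lost their calls without uninduced replicate 1 (adjusted p = 0.3 for Tkt and 0.14 for Txn1, edgeR). Nfe2l2 itself was at -0.03 ± 0.08 (adjusted p = 0.806). The 12 calls of the list became 8 with DESeq2, after thinning, without a filter on low counts or without the shallow Ogdh libraries, and 7 without uninduced replicate 1 or shOgdh346 replicate 1.

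The promoters of these genes were searched because members moved together. RefSeq windows (GRCm38.p6) from 250 bases before to 50 after a start were matched for 22 of 27 listed genes. The core letters of the antioxidant response element that NRF2 binds, TGACNNNGC on either strand, stood in windows of 8 of the 22 (36.4%) and of 14% of all genes with a window. Of these 8, 3 were called higher (Gclm, Pgd and Prdx1), and of 11 other tested members with a window 5 were, Nqo1 among them. The E-box letters CACGTG, on either strand, stood in windows of 4 of 33 matched ribosome biogenesis genes (12.1%) and of 8.09% of all genes. The windows of Gclm, the modifier subunit partner of Gclc (chr3:122245307-122245606, plus strand), and Prdx1, a peroxidase (chr4:116685349-116685648, plus strand), are shown as called members that hold the core. Capitals mark the match, which lies on the reverse strand in both.
Gclm: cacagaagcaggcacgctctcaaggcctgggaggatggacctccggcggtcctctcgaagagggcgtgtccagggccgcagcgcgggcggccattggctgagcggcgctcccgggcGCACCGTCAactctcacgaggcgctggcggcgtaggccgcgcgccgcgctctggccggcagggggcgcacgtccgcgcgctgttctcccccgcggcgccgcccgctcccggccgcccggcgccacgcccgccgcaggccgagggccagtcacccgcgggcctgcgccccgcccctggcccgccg
Prdx1: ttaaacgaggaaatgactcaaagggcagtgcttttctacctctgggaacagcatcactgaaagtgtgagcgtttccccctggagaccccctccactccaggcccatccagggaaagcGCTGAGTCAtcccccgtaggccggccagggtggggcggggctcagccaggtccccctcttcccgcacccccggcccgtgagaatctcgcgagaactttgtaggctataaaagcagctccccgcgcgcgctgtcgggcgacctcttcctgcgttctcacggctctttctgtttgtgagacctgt
A match describes letters and is not a binding site. Gclm was at 341 to 359 CPM in the Ogdh libraries against 285 and 305 CPM (0.25 ± 0.07), and Prdx1 at 488 to 520 CPM against 418 and 461 CPM (0.21 ± 0.07). Against the induced control Gclm was called (0.27) and Prdx1 was at 0.04 (adjusted p = 0.755, edgeR).

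Of 26 tested genes of heme and iron handling, 8 were higher and 3 lower (10.5% and 10.3% of all genes). The 8 were also called against the induced control, beside 5.8% of all genes called higher against both. Slc40a1, the iron exporter ferroportin, was at 440 to 506 CPM against 283 and 296 CPM, a rise of 0.68 ± 0.07 (adjusted p = 5.94e-12, edgeR). Ftl1, the ferritin light chain, was at 218, 196, 202 and 209 CPM against 121 and 131 CPM (0.72 ± 0.07). Iron storage and export genes thus moved in 1 direction with Hmox1, which frees iron from heme. The heme synthesis gene Uros was at 52.2, 58.2, 50.4 and 46.3 CPM against 27.9 and 26.6 CPM (0.90 ± 0.11). The 11 calls became 7 with DESeq2 and 7 without uninduced replicate 1, shOgdh346 replicate 1 or shOgdh2081 replicate 2.

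Within the erythroid list Car1 had a large rise. Car1, carbonic anhydrase 1 (ENSMUSG00000027556, chromosome 3, 14766216 to 14808368, minus strand), was at 137, 116, 124 and 107 CPM against 41.8 and 49.4 CPM. It rose by 1.37 ± 0.09 (adjusted p = 3.06e-18, edgeR), and by 1.49 ± 0.11 against the induced control at 43.9 and 42.0 CPM. The Ogdh libraries were above all day 4 controls.

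Of 20 erythroid genes tested, 5 were higher, Car1 and Hba-a2 among them, and 1 lower (Ank1), beside 10.5% and 10.3% of all genes. Against the induced control 11 were higher and 1 lower, beside 7.72% and 8.36%, and the median moved from 0.08 to 0.46. In the induced control 2 of the 20, the beta globins, were lower than in the uninduced one. The erythroid list summed to 3450 to 3640 CPM in the uninduced control, 3250 to 3290 CPM in the induced control and 3620 to 3990 CPM in the Ogdh libraries. Klf1, the erythroid transcription factor, was at -0.10 ± 0.07 (adjusted p = 0.32, edgeR). Hba-a2 lost its call without uninduced replicate 2 (adjusted p = 0.14) and Ank1 without uninduced replicate 1 (0.087). The 6 calls became 3 after thinning.

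Of 9 mast cell and basophil genes tested, of 20 listed, 5 were higher and 1, Gata2, was lower, beside 10.5% and 10.3% of all genes, and 3 and 1 were called against both controls (5.8% and 6.1% of all genes). Ms4a2, the beta chain of the high-affinity IgE receptor, was at 110, 126.7, 124 and 111 CPM against 41.5 and 46.9 CPM (1.35 ± 0.10, adjusted p = 4.35e-18, edgeR). The induced control lay at 52.9 and 60.6 CPM, and the rise against it was 1.03 ± 0.11. The interleukin 33 receptor gene Il1rl1 was at 307 to 342 CPM against 185 and 215 CPM (0.67 ± 0.07). Cpa3, a mast cell protease, and Cd200r3 were called against the uninduced control alone. Cd200r3 lost its call without uninduced replicate 2 (adjusted p = 0.17) or shOgdh2081 replicate 2 (0.24). Kit was at 0.08 ± 0.06 (adjusted p = 0.417). The 6 calls became 3 after thinning. The list summed to 1640 to 1670 CPM in the uninduced control and 1780 to 1950 CPM in the Ogdh libraries, and the part of a change in the cells' makeup in these results was not tested.

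Lists of other cell types summed to lower levels than the erythroid and mast cell lists. Granule genes summed to 1.08 to 1.94 CPM in the uninduced control and 0.856 to 3.29 CPM in the Ogdh libraries, mature neutrophil genes to 0.542 to 1.16 and 0 to 1.1 CPM, and eosinophil genes to 1.08 to 1.26 and 1.71 to 2.45 CPM. None of these genes passed the filter on low counts. Monocyte genes summed to 10.2 to 10.6 and 7.68 to 13.9 CPM, B cell genes to 2.98 to 4.17 and 3 to 5.48 CPM, and T and NK cell genes to 7.27 to 7.32 and 6.85 to 13.2 CPM. Dendritic genes summed to 132 to 147 and 123 to 136 CPM, stromal genes to 36.6 to 42 and 29.6 to 36.5 CPM, and megakaryocyte genes to 100 to 111 and 105 to 116 CPM. Called higher were 2 of 6 tested megakaryocyte and 1 of 2 monocyte genes, beside 10.5% of all genes. Called lower were 1 of 2 dendritic and 1 of 4 stromal genes, beside 10.3%. Against both controls 1 megakaryocyte gene was higher and 1 stromal gene lower, beside 5.8% and 6.1% of all genes. With DESeq2 these lists had 0 calls.

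Among 22 tested transcription factors of blood, 3 were higher (13.6%) and 7 lower (31.8%). Against both controls 3 and 4 were called, beside 5.8% and 6.1% of all genes. Against the uninduced control the higher share lies near the 10.5% of all genes, and the lower share stands beside 10.3%. Myb, a progenitor factor, was at 891, 887, 879 and 866 CPM against 658 and 682 CPM (0.39 ± 0.06, adjusted p = 2.8e-06, edgeR). Bach1, a repressor of Hmox1 that senses heme, was at 72.7, 77.9, 89.9 and 75.5 CPM against 47.4 and 47.1 CPM (0.69 ± 0.10). Runx3 was at 28.2 to 37.4 CPM against 57.5 and 55.0 CPM (-0.65 ± 0.11). The third higher gene, Ikzf2, lost its call without uninduced replicate 2 (adjusted p = 0.12) or shOgdh2081 replicate 2 (0.1). The 10 calls became 5 with DESeq2 or without the shallow Ogdh libraries, and 6 after thinning or without uninduced replicate 2, shOgdh346 replicate 2 or shOgdh2081 replicate 2.

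**Figure D3:**
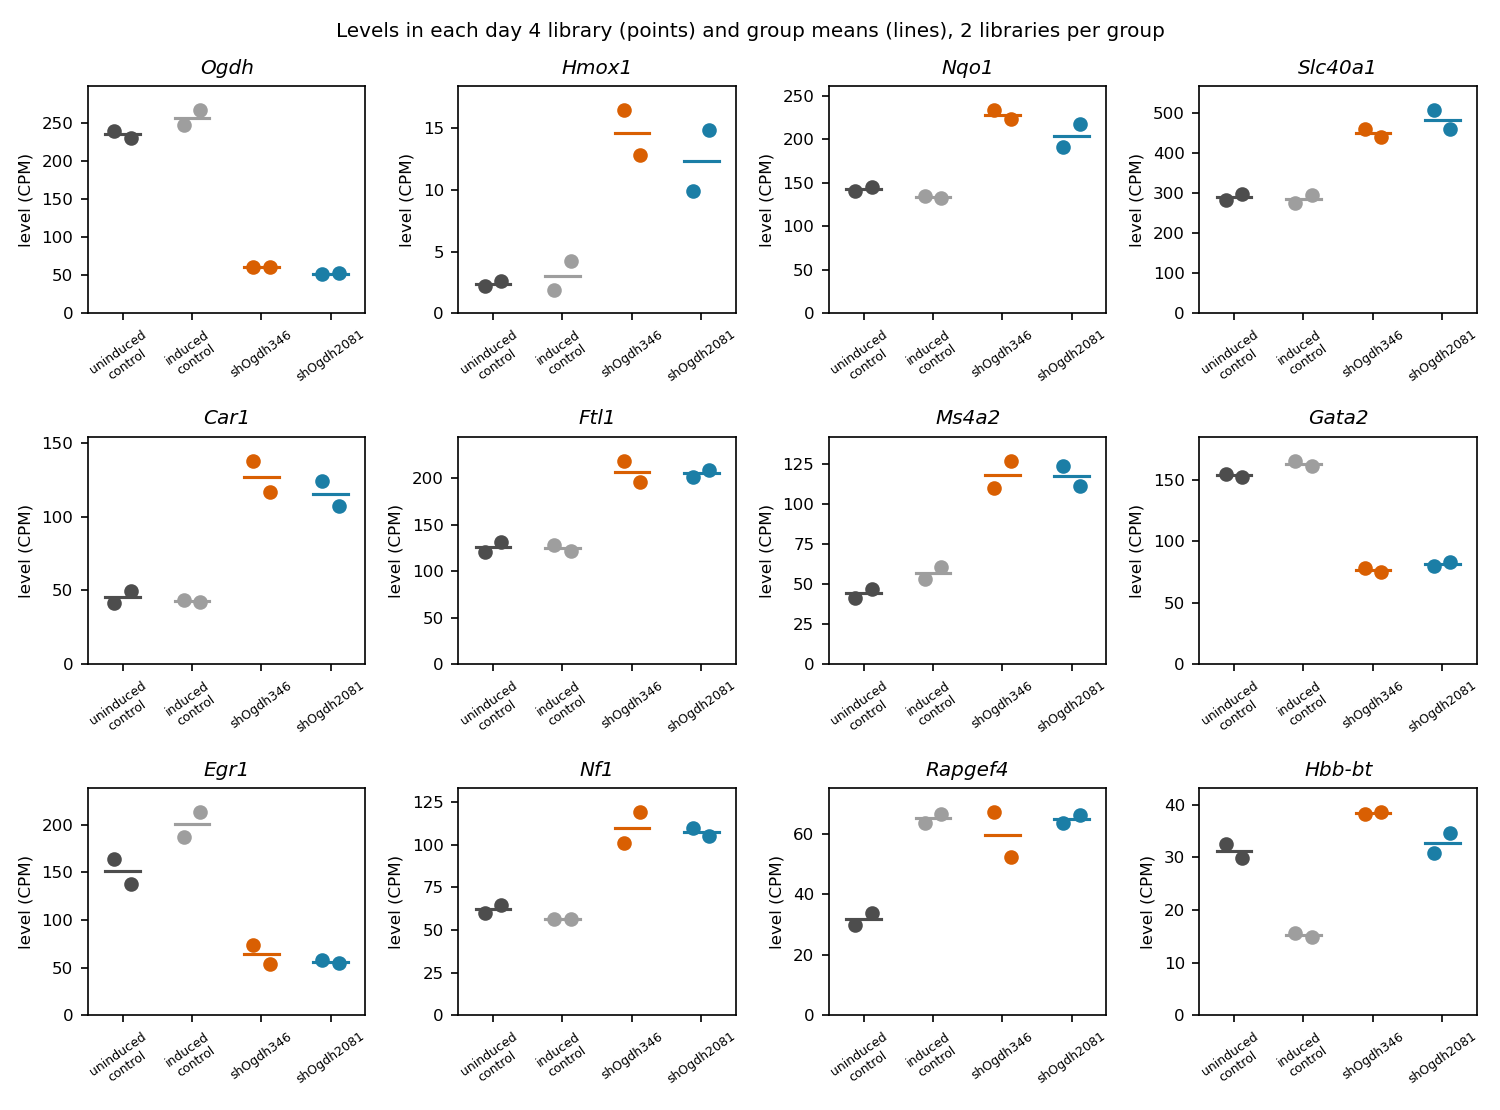
Each panel shows 1 gene's level in CPM (y axis, from 0) in the 8 day 4 libraries (points) with group means (lines), 2 libraries per group. For Ogdh, Hmox1, Nqo1, Slc40a1, Car1, Ftl1, Ms4a2, Gata2, Egr1 and Nf1 the Ogdh libraries lie apart from both controls, while for Rapgef4 and Hbb-bt they lie near 1 control only.

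Nuclear genes for mitochondrial energy metabolism were called lower and not higher. Of 56 respiratory chain and ATP synthase genes, 31 were lower and 0 higher, beside 10.3% and 10.5% of all genes. Against both controls 23 were lower, beside 6.1% of all genes. All 4 Ogdh libraries lay below both uninduced libraries for 37 of the 56, beside 18.9% of all genes. The median log2 change was -0.22, and the summed level went from 12300 to 12700 CPM to 10300 to 11100 CPM. Atp5k of ATP synthase was at 72.7, 68.5, 74.6 and 68.0 CPM against 90.6 and 97.4 CPM (-0.42 ± 0.09, adjusted p = 0.000162, edgeR). Ndufa5 of complex I was at 41.7 to 52.4 CPM against 70.2 and 64.8 CPM (-0.44 ± 0.10). Cox5a of complex IV, at -0.44, rested on shOgdh2081 replicate 2 (42.0 CPM) and was at -0.15 without it (adjusted p = 0.44).

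The number of respiratory chain calls changed with the tool, the depth and the libraries used. The 31 became 9 with DESeq2, 3 after thinning, 18 with a transcript length correction and 15 without the shallow Ogdh libraries. With uninduced replicate 1, shOgdh346 replicate 1 or shOgdh2081 replicate 2 left out they became 12, 18 and 15.

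Mitochondrial ribosomal protein genes gave 17 lower and 0 higher of 55, beside 10.3% and 10.5% of all genes, and 7 lower against both controls, beside 6.1%. Mrpl40 was at -0.44 ± 0.10. These 17 became 2 with DESeq2, 5 after thinning and 10 without the shallow libraries. They became 10 and 6 without uninduced replicates 1 and 2, 6 without shOgdh346 replicate 1, and 11 and 9 without shOgdh2081 replicates 1 and 2. Mitochondrial chaperones and proteases gave 8 lower of 21, 7 of them against both controls, and 5 with DESeq2. Hspa9, the mitochondrial HSP70, was at 849 to 914 CPM against 1109 and 1136 CPM (-0.35 ± 0.06, adjusted p = 9.78e-06, edgeR).

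The TCA cycle list gave 6 lower and 0 higher of 20, beside 10.3% and 10.5% of all genes, and 4 lower against both controls, beside 6.1%. Pyruvate carboxylase, Pcx, was at 43.9 to 54.3 CPM against 74.3 and 64.7 CPM (-0.40 ± 0.10) and was not called against the induced control (-0.15, adjusted p = 0.427, edgeR). Suclg2, of the step after Ogdh, changed by -0.27 ± 0.08, and its call ended without uninduced replicate 2, shOgdh346 replicate 1 or shOgdh2081 replicate 2 (adjusted p = 0.13, 0.17 and 0.087). The 6 calls became 1 with DESeq2 or thinning, 3 without the shallow libraries, 3 and 2 without uninduced replicates 1 and 2, and 3 without shOgdh346 replicate 1.

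Of 16 tested 2-oxoacid dehydrogenase genes 4 were lower, Ogdh, Bckdhb, Pdhb and Pdk3, beside 10.3% of all genes, and Ogdh, the targeted gene, alone was called against both controls. Its partner subunits were not called, with Dlst at 0.14 ± 0.07 (adjusted p = 0.164, edgeR) and Dld at 0.15 ± 0.09 (0.243). The 4 calls became 1 with DESeq2, thinning or without the shallow libraries. They became 2 and 1 without uninduced replicates 1 and 2, 1 and 2 without shOgdh346 replicates 1 and 2, and 2 without shOgdh2081 replicate 2. Transcripts of the mitochondrial genome gave 4 higher and 0 lower of 9 (10.5% and 10.3% of all genes). Only mt-Co1 was called against both controls, at 10390 to 11454 CPM against 7153 and 8864 CPM (0.47 ± 0.07). Against the induced control 1 was higher and 1 lower (7.72% and 8.36% of all genes), and the median moved from 0.06 to -0.05. The list summed to 22700 and 28100 CPM in the uninduced control, 27800 and 27700 CPM in the induced control and 26700 to 30800 CPM in the Ogdh libraries.

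Growth lists were called lower in the same way. Of 40 DNA replication genes 24 were lower and 0 higher (10.3% and 10.5% of all genes), and 17 lower against both controls, beside 6.1%. Pold2, of DNA polymerase delta, was at 96.6, 70.2, 93.2 and 89.9 CPM against 148 and 120 CPM (-0.55 ± 0.09, adjusted p = 3.56e-06, edgeR), and Rfc2 of the clamp loader changed by -0.46 ± 0.08. Of 28 nucleotide synthesis genes 13 were lower and 0 higher, 12 of them against both controls (6.1% of all genes). Dut, which removes dUTP, was at 265, 283, 258 and 218 CPM against 348 and 371 CPM (-0.53 ± 0.07), and the purine synthesis gene Gart changed by -0.48 ± 0.07. The 24 replication calls became 11 with DESeq2 or thinning, 16 without the shallow libraries and 15 without uninduced replicate 1 or 2 or shOgdh346 replicate 1. The 13 nucleotide calls became 8 after thinning or without uninduced replicate 2 or shOgdh346 replicate 1.

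Ribosome biogenesis and other genes known as MYC targets gave 21 lower and 0 higher of 40, beside 10.3% and 10.5% of all genes, and 20 lower against both controls, beside 6.1%. Srm, spermidine synthase, was at 304, 294, 268 and 324 CPM against 451 and 404 CPM (-0.49 ± 0.07, adjusted p = 1.46e-07, edgeR). Cad, of pyrimidine synthesis, changed by -0.45 ± 0.07, and Myc itself was at -0.01 ± 0.07 (adjusted p = 0.939). Proteasome genes gave 21 lower and 0 higher of 34, with 19 lower against both controls (6.1% of all genes). Psmc4, Psmd6 and Psmb3 were at -0.39, -0.37 and -0.37. Cytosolic ribosomal protein genes differed from these lists in their counts, with 5 higher (8.93%) and 1 lower (1.79%) of 56. The calls were 18 in all with a transcript length correction, 2 after thinning and 3 without a filter on low counts. Without any 1 of uninduced replicate 1, shOgdh346 replicate 1 or shOgdh2081 replicate 2 these 6 calls became 3, 3 and 2.

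The 21 ribosome biogenesis calls became 11 with DESeq2, 7 after thinning, 13 and 12 without uninduced replicates 1 and 2 and 12 without shOgdh2081 replicate 2. The 21 proteasome calls became 13 with DESeq2, 6 after thinning and 11 without the shallow libraries, and 11 without uninduced replicate 1 and 13 without shOgdh346 replicate 2. Sterol and fatty acid synthesis genes gave 8 lower and 0 higher of 27, beside 10.3% and 10.5% of all genes. Scd2, a fatty acid desaturase, was at 492, 452, 485 and 525 CPM against 731 and 753 CPM (-0.59 ± 0.06, adjusted p = 1.29e-10, edgeR), and the elongase gene Elovl6 changed by -0.58 ± 0.10. These 8 became 4 with DESeq2, 5 after thinning and 5 without uninduced replicate 1.

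Genes of mitosis were called higher while those of replication were called lower. Of 34 tested, 18 were higher and 0 lower (10.5% and 10.3% of all genes), and 11 higher against both controls, beside 5.8%. Aurka, the Aurora A kinase, was at 147, 145, 174 and 153 CPM against 109 and 108 CPM (0.49 ± 0.08, adjusted p = 2.72e-06, edgeR), and Cenpf, of the kinetochore, at 253 to 293 CPM against 185 and 201 CPM (0.42 ± 0.07). Cdk1 was at -0.01 ± 0.07 (adjusted p = 0.952). The 18 calls became 8 after thinning and 11 without a filter on low counts. Of 13 tested histone genes of the clusters, 7 were higher and 0 lower, 6 of them against both controls (5.8% of all genes). Hist1h2bc was at 107, 102, 84.4 and 90.1 CPM against 63.7 and 62.6 CPM (0.62 ± 0.09). Most such messages lack the polyA tail that these libraries select and have near-identical copies, so their counts are uncertain. The 7 became 3 with DESeq2, 2 after thinning and 4 without uninduced replicate 2 or shOgdh2081 replicate 2.

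The dioxygenases of chromatin and nucleic acids that use 2-oxoglutarate gave 9 higher and 1 lower of 28 tested (10.5% and 10.3% of all genes). Against both controls 6 and 0 were called, beside 5.8% and 6.1%. Kdm3a, a histone H3 lysine 9 demethylase, was at 284, 335, 285 and 268 CPM against 205 and 227 CPM (0.41 ± 0.07, adjusted p = 1.66e-05, edgeR). Kdm7a changed by 0.39 ± 0.09. Tet2, which oxidises methylcytosine, was at 0.39 ± 0.13, and its call ended without uninduced replicate 1 or 2 or without shOgdh346 replicate 1 or shOgdh2081 replicate 1 (adjusted p = 0.057, 0.11, 0.058 and 0.054). The 10 calls became 3 with DESeq2 or thinning, 5 without a filter on low counts, 6 and 5 without uninduced replicates 1 and 2, 5 without shOgdh346 replicate 1 and 4 without shOgdh2081 replicate 2. Hypoxia genes gave 5 higher and 0 lower of 18, and 4 higher against both controls (5.8% of all genes). P4ha1, a collagen prolyl hydroxylase, was at 57.3, 46.2, 53.7 and 48.3 CPM against 32.5 and 34.5 CPM (0.62 ± 0.11). The 5 hypoxia calls became 2 after thinning, which ended the call of P4ha1.

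Immediate early genes and targets of the ERK kinases gave 7 lower and 0 higher of 25 tested (10.3% and 10.5% of all genes). Lower against both controls were 4, beside 6.1% of all genes. Besides Egr1 these 4 were Etv5, Ier2 and Spry4. Etv5, an ETS factor, was at 54.9, 58.2, 53.7 and 61.4 CPM against 100 and 86.9 CPM (-0.68 ± 0.09, adjusted p = 1.15e-07, edgeR). Spry4, a feedback inhibitor of ERK signalling, was at 21.0, 17.1, 20.8 and 27.9 CPM against 39.9 and 34.8 CPM (-0.66 ± 0.12), and thinning ended its call. Dusp6, an ERK phosphatase, was at -0.27 ± 0.17 (adjusted p = 0.279). Fos was at 0.873 and 0 CPM with shOgdh346, 1.10 and 0.215 CPM with shOgdh2081 and 2.44 and 2.62 CPM in the control. In the shallow Ogdh libraries, with 0 and 1 Fos counts, 3 counts are 2.57 and 3.29 CPM, so at that depth they do not place Fos below the control. Its call ended with DESeq2, after thinning, and without uninduced replicate 2 (adjusted p = 0.055) or shOgdh2081 replicate 2 (0.16), and it was not called against the induced control (0.0593). The 7 calls became 4 with DESeq2, 3 after thinning and 4 without shOgdh2081 replicate 2.

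In the list of cytokine receptors and JAK-STAT genes 2 of 19 were higher, Bcl6 and Csf2rb, and 2 lower, Pim1 and Socs2, near the 10.5% and 10.3% of all genes. All 4 were called against both controls, beside 5.8% and 6.1% of all genes. After thinning 2 were called. Socs2, a feedback inhibitor of cytokine signalling, was at 16.9, 16.3, 21.9 and 20.8 CPM against 32.5 and 34.4 CPM (-0.84 ± 0.13, adjusted p = 1.91e-06, edgeR). Csf2rb, the common beta chain, rose by 1.15 ± 0.23, lost its call after thinning and has a near-identical neighbour, so its counts are uncertain.

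Nf1, the RAS inhibitor that a hairpin in every library targets, was higher with Ogdh knockdown. Nf1 (ENSMUSG00000020716, chromosome 11, 79339693 to 79581612, plus strand) was at 101, 119, 110 and 105 CPM in the Ogdh libraries, 59.9 and 64.7 CPM in the uninduced and 56.4 and 56.4 CPM in the induced control. Every Ogdh library was above every control library. Nf1 rose by 0.75 ± 0.09 (adjusted p = 1.49e-09, edgeR), by 0.75 and 0.76 for the single hairpins, and by 0.91 ± 0.11 against the induced control. The other engineered genes were not called, with Kmt2c at 0.07 ± 0.08 (adjusted p = 0.574) and Trp53 at -0.12 ± 0.07 (0.282), and without shOgdh2081 replicate 2 the Kmt2c value was -0.01. Of 12 tested genes of the RNA interference machinery 2 were higher, Tnrc6a (0.30) and Tnrc6b (0.32), and 1 lower, Ran (-0.23), near the 10.5% and 10.3% of all genes, with 0 of the 3 called after thinning or without uninduced replicate 2. The part of competition between hairpins in the Nf1 result was not tested.

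Lysosome and autophagy genes gave 10 higher and 2 lower of 32, beside 10.5% and 10.3% of all genes, and 5 and 1 against both controls, beside 5.8% and 6.1%. The 12 calls became 5 with DESeq2 or thinning, 6 without uninduced replicate 2 or shOgdh346 replicate 1 and 4 without shOgdh2081 replicate 2. Glycolysis gave 2 higher (9.52%) and 4 lower (19%) of 21, the former near the share of all genes, and its 6 calls became 3 after thinning or without the shallow libraries. Hk1, a hexokinase, changed by -0.40 ± 0.06. Aldoa, aldolase A, was at 0.35 ± 0.07 against the uninduced and 0.02 ± 0.08 against the induced control (adjusted p = 0.888), and the controls' difference was not called (0.33, adjusted p = 0.177).

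In the ATF4 and amino acid stress list 3 were higher (12%) and 5 lower (20%) of 25, beside 10.5% and 10.3% of all genes. The 8 calls became 5 with DESeq2 or without uninduced replicate 1 and 4 after thinning. Phgdh, the first enzyme of serine synthesis, was at 40.4 to 50.5 CPM against 83.8 and 74.0 CPM (-0.76 ± 0.10, adjusted p = 1.44e-08, edgeR), and the transporter chain gene Slc3a2 was at 260 to 311 CPM against 227 and 213 CPM (0.42 ± 0.07). Glutamate and 2-oxoglutarate source genes gave 1 higher and 4 lower of 16, all 5 also called against the induced control (5.8% and 6.1% of all genes). These 5 became 0 after thinning and 3 with DESeq2 or without uninduced replicate 1 or shOgdh346 replicate 1. The p53 target list gave 2 higher and 3 lower of 18, the interferon list 0 and 1 of 19, the heat shock list 2 and 0 of 15, the endoplasmic reticulum stress list 1 and 3 of 21 and the apoptosis list 1 and 2 of 12. Beside the 10.5% and 10.3% of all genes these are small numbers, and with DESeq2 or thinning each of these 5 lists had 0 to 2 calls.

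Of 9 tested integrin genes, which encode adhesion receptor chains, 2 were higher and 1 lower, beside 10.5% and 10.3% of all genes, and 1 was called with DESeq2 or after thinning. Itga4, the alpha 4 chain, was at 365 and 412 CPM with shOgdh346, 504 and 435 CPM with shOgdh2081 and 306 and 353 CPM in the control (0.34 ± 0.07, adjusted p = 0.000278, edgeR), and its change against the induced control was 0.31. It kept its call in all 18 alternatives run on the uninduced comparison. Itgal, the alpha L chain, was at 12.6, 13.7, 12.1 and 14.6 CPM against 19.5 and 22.1 CPM (-0.66 ± 0.15), and lost its call with DESeq2, after thinning or without uninduced replicate 2 (adjusted p = 0.0951). Itgb3, the beta 3 chain, was at 6.29, 6.85, 3.29 and 5.58 CPM against 4.34 and 2.91 CPM, so the groups overlapped. Its change of 0.79 ± 0.29 (adjusted p = 0.0414) lost its call in 8 of the 18 alternatives, with values down to 0.34 and an adjusted p up to 0.815, and was not called against the induced control (adjusted p = 0.124). The Itgb3 call ended without any 1 of uninduced replicate 2 (adjusted p = 0.568), shOgdh346 replicates 1 and 2 (0.159 and 0.0593) and shOgdh2081 replicate 2 (0.614).

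**Figure D4:**
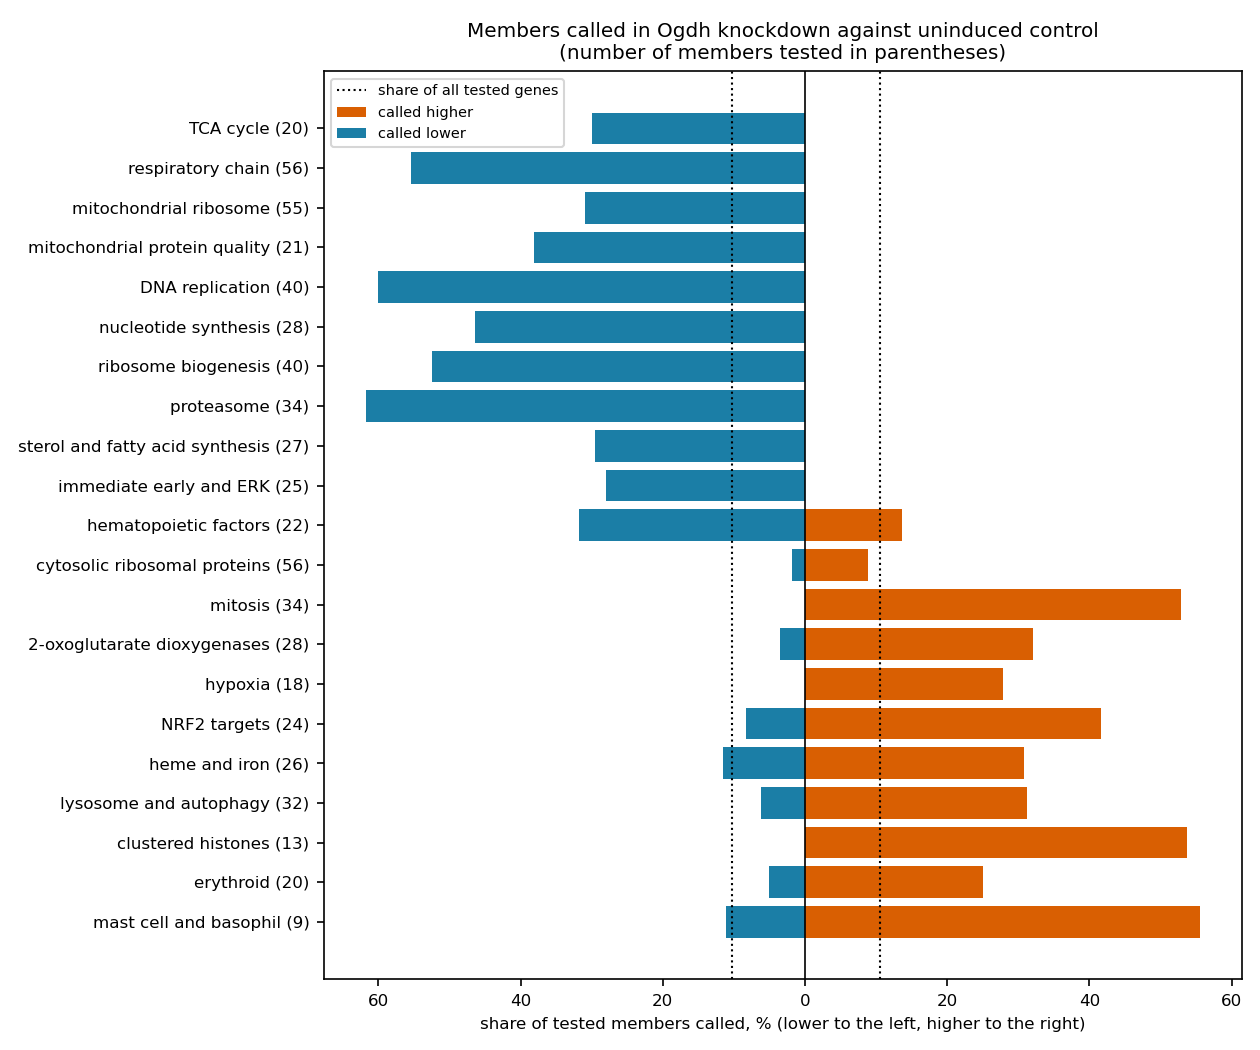
Bars give, for selected gene lists, the percent of tested members called lower (left) or higher (right) in Ogdh knockdown against uninduced control. Dotted lines mark the 10.3% and 10.5% of all tested genes. Lists not drawn include glycolysis, integrins and the mitochondrial genome. Among the lists shown, proteasome (61.8%), DNA replication (60%) and respiratory chain genes (55.4%) reach furthest to the left. Mast cell (55.6%), histone (53.8%) and mitosis genes (52.9%) reach furthest to the right.

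By the labels' library numbers, the day 4 libraries were split at a limit chosen here. The set up to 15 holds the shallow Ogdh libraries, and the other set lies above 15. Within each set the mean of the Ogdh libraries, 1 per hairpin, was compared with 1 uninduced control library. The log2 differences were -2.09 and -2.02 for Ogdh, 1.51 and 1.29 for Car1, 2.14 and 2.37 for Hmox1, 0.55 and 0.63 for Nqo1, and 0.93 and 0.67 for Nf1. The direction was the same in both sets for each of these genes. For each of them every Ogdh library lay on the same side of every uninduced library. Any split of these libraries therefore gives the same direction, and the agreement cannot test for a batch.

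Few genes were called as different between the hairpins. Each hairpin group holds a shallow library, so few calls do not show that the hairpins act alike. The test of shOgdh346 against shOgdh2081 called 9 of 10791 genes, with 786 at an unadjusted p under 0.05 (edgeR). For Ogdh, Car1, Hmox1, Nqo1 and Nf1 the difference was not called. The mitochondrial ribosomal RNA mt-Rnr1 was at 110 and 130 CPM with shOgdh346, 162 and 172 CPM with shOgdh2081 and 109 and 92.5 CPM in the uninduced control, and its changes were 0.22 with shOgdh346 and 0.77 with shOgdh2081. Also lower with shOgdh346 than with shOgdh2081 were Gm15564 (-1.29), Mir6236 (-1.25), Gm26917 (-0.80), Lars2 (-0.79), Sh3bgrl (-0.71) and Ppp1cb (-0.43), while Pi4k2b (0.67) and Rps21 (0.37) were higher. Gm15564, Mir6236 and Gm26917 are known to collect reads of ribosomal RNA, and the part of ribosomal RNA carried into these polyA-selected libraries in the mt-Rnr1 result was not tested.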

How the data were processed

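PolyA-selected RNA of KL974 cells was sequenced. Per the submitters' processing notes, the authors used FastQC 0.11.5, Trimmomatic 0.36, STAR 2.6.1a and featureCounts 1.6.3 with mm10/GRCm38; per the labels' protocols, reads went to hg19 and HTSeq instead, and the deposited mouse gene table fits the notes. The deposited values are raw counts per gene. How strand and multi-mapping reads were handled was not given in the sources used here.

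Counts of all 14 libraries (7 groups) were fitted with edgeR 4.0.16 (quasi-likelihood, TMM scaling, R 4.3.3, limma 3.58.1) on 10791 of 53465 genes kept by edgeR's filter on low counts, and levels are CPM. Knockdown was the mean of both hairpins. DESeq2 1.42.0, other scalings, filters, thinning, blocks and leaving out libraries were alternatives. With 2 against 4 libraries an exact permutation test cannot go below p = 0.133, so none was used. The fit was checked on counts simulated from its own model and its own estimates of spread. Changes were placed in a small set of genes, all above a limit on mean count. The fit recovered 46% of 1.25-fold, 80% of 1.5-fold and 98% of 2-fold changes, and 6.9% of its calls were false. These values hold for that setting. They do not cover genes of low count, and 6.9% is not the false share of the calls reported here.

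The genes and lists were chosen with earlier results of these data known. Named were the targeted and engineered genes, the 12 largest rises and falls called for each hairpin and against both controls at 5 CPM or more, the 5 largest per direction called against 1 control alone, and up to 3 called members per list and direction. The naming limits for all these largest changes were 5 CPM in the highest group mean and the gene name. Names that start with Gm and a digit or end in Rik were left out. Genes named otherwise were chosen after their values were seen: Rapgef4, Il9r, the other genes called between the controls, Hba-a1, Gclc, Gclm, Prdx1, Pgd, Slc40a1, Il1rl1, Ier2, Spry4, Hist1h2bc, the other genes called between the hairpins, and list members given as not called or in a full count of a list. Some genes that the rule names are not reported here.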

Additional observations from a re-analysis of the deposited data

Results flagged for a closer look

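The difference between the Ogdh hairpins passed the test for 1 named gene. For mt-Rnr1, the log2 fold change against the uninduced control was 0.22 with shOgdh346 and 0.77 with shOgdh2081, a difference of -0.55 (adjusted p = 0.00495, edgeR, over 10791 genes). Gm15564 (-1.29), Mir6236 (-1.25), Gm26917 (-0.80) and Lars2 (-0.79) differed in the same direction.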

How the results depend on the processing

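The cause of each shift below was not tested. Against 2243 calls for knockdown over uninduced control, DESeq2 gave 721 and thinning 703, and leaving out 1 of the 6 libraries compared gave 1350 to 1881, with 2096 and 2097 without induced control replicates 1 and 2. The ranges below likewise leave out 1 library of the groups compared. For shOgdh346 (1403) the values were 364 and 390, with 801 without the shallow libraries and 355 to 992 without 1 library. For shOgdh2081 (1584) they were 438 and 553, with 829 without the shallow libraries and 555 to 1243 without 1 library. Knockdown over induced control (1735) gave 661 and 687, and 469 to 1454 without 1 library. The 1284 genes called against both controls became 465 and 362, and 413 to 1057 without 1 library. The control comparison (8) gave 3 and 5, 16 in a fit of its own groups, and 3 to 16 without 1 library (16 without uninduced replicate 2, 3 without induced replicate 1 or 2).

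Without a filter on low counts, 768 of 2013 calls were higher and 1245 lower. The replicate block gave 2388 calls, 2216 of them shared. Correlations between same-numbered samples, in deviations from group means, ran from -0.0818 to 0.062 and showed no pairing. With 2 libraries per group, some of them shallow, such values cannot exclude a shared culture or batch. With library number as a block 2209 genes were called. All 4 day 4 controls as the control, chosen after seeing the data, gave 2839.

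Of 145 named and called genes, 54 were called under all alternatives listed in processing other than changes of control. Signs turned for Kmt2c (-0.048 with the length correction, and -0.0081 to 0.103 without 1 library, lowest without shOgdh2081 replicate 2), Ypel2 (-0.55 to 1.02, lowest without shOgdh346 replicate 1), Rilpl1 (-0.041 to 0.59, lowest without uninduced replicate 2) and Tdrkh (0.30 thinned, and -0.85 to 0.012 without 1 library, highest without shOgdh2081 replicate 2). They also turned for Arhgdig (0.0030 thinned), Ehd3 (-0.32 thinned, -0.43 with 4 controls, -1.10 with the induced control), Vwf (-0.020 thinned), Rapgef4 (-0.012 with the induced control) and Hbb-bs (0.15 with 4 controls, 0.52 with the induced control). Depth limits low genes, since 3 counts are 2.57 and 3.29 CPM in the shallow libraries.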
